A study of Rattus norvegicus with 24 samples.

Results

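Mitosis and spindle genes are the genes that cells switch on as they enter and pass through division: the cyclin-dependent kinase that starts mitosis with its cyclins, the mitotic kinases, the spindle checkpoint, the kinetochore, the spindle motors, the proteins that trigger anaphase, the condensins and the cytokinesis machinery. The 42 genes of the list were chosen by name and role, with earlier results of these data known, and each was represented by the probe set annotated to it, the one with the highest mean where there were several. Of these, 36 were measured among the 14217 genes of the array. Cdc25c, Nek2, Ndc80, Tpx2 and Ncapg were not named in the annotation used here, and Anln was named only on a probe set shared with Anlnl1. A filter at the lower quartile of gene means (log2 4.487) left out none of the 36.

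The cells were INS-1E, a clonal rat insulinoma line that makes insulin and divides in culture, so all 8 groups come from a tumour line and not from islets. Groups of 3 arrays each, 24 in all, received cytokines (IL-1b at 10 ng/ml, IFN-g at 50 ng/ml and TNF-a at 25 ng/ml) with 10 uM BRD0476, cytokines with the solvent DMSO, BRD0476 without cytokines, or DMSO without cytokines, each for 6 or 12 h. BRD0476 is a compound known for protecting beta cells from death caused by such cytokines. Beta-cell markers were present: 8 of 9 were measured, at log2 levels from 6.90 to 14.60 over the arrays and all with a mean above the median gene. Of the markers of leukocytes, fibroblasts and endothelium, 12 were measured and 0 had a mean above it, and of 4 other islet hormones 1 did, Gcg, at 9.26 to 10.75. Total RNA of a whole culture was measured, so fewer dividing cells and less RNA per cell cannot be told apart in any result below. Arrays of a group correlated with r of 0.992 to 0.998. Nothing in the labels says that the 3 arrays of a group came from separate cultures, so p-values measure the spread between these arrays only.

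As background, most of these genes share a transcriptional programme. Their RNA is low in cells that have just divided or are at rest and climbs towards the end of the cycle. In resting cells and in cells with p53 activity the DREAM complex, built on the MuvB core, holds such promoters down. In late S phase and G2 the same core binds B-MYB and FOXM1 and turns them on. MuvB contacts a short element near the start site called the CHR (cell cycle genes homology region), and NF-Y binds CCAAT boxes a little upstream. CDK inhibitors such as p21, the product of Cdkn1a, favour the repressed state.

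The start sites of 8 members are shown because these letters occur in most but not all of the members' promoters (counts below), and because 2 members among them, Kif11 and Smc4, differed from the others in the results. Each sequence runs from 140 bases before the RefSeq start to 20 after it on the gene's own strand (build GRCr8). Capitals mark TTTGAA, used here as the CHR letters, and CCAAT, on either strand. TTCAAA and ATTGG are the same letters read on the other strand.
Cdk1, chr20:19265153-19265312, strand +: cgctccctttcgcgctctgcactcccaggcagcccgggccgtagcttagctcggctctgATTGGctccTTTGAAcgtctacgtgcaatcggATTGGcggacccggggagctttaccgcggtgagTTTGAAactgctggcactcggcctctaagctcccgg
Cdc20, chr5:137255780-137255939, strand -: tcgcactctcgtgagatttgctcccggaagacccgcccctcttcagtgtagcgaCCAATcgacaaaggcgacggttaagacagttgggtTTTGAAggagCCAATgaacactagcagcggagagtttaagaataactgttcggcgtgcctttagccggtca
Plk1, chr1:186147518-186147677, strand +: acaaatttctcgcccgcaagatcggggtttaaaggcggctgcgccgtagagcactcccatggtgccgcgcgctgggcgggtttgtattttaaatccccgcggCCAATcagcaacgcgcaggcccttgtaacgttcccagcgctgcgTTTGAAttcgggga
Bub1b, chr3:126016927-126017086, strand +: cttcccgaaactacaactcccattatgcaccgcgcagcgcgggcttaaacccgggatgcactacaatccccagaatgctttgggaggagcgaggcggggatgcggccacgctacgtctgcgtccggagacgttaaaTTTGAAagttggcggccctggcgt
Ccnb2, chr8:79981639-79981798, strand -: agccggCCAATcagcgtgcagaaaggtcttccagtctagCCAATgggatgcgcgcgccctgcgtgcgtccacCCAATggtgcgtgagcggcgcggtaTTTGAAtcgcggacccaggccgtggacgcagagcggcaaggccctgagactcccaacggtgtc
Top2a, chr10:84473074-84473233, strand -: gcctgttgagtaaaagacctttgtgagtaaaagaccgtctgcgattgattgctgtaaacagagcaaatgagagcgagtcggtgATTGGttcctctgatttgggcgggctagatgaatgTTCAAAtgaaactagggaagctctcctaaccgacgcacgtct
Kif11, chr1:244536727-244536886, strand +: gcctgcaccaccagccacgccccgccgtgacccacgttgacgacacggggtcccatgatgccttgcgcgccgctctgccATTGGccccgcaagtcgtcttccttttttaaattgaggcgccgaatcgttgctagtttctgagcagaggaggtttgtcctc
Smc4, chr2:155550122-155550281, strand +: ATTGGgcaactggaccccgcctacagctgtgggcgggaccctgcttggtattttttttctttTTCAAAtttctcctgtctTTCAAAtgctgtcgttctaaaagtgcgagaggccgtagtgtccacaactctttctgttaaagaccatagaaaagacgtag

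Promoters of 300 bases (250 before the start and 50 after it) were found for 37 of the 42 genes and for 32 of the 36 measured. TTTGAA on either strand was present in 23 of the 32, or 71.9%, against 12.4% of the 11701 promoters of genes on the array and 18.2% of all 27457 rat promoters. Within 100 bases before the start, or after it, it was present in 65.6% of the members' promoters, against 4.97% and 8.12%. CCAAT on either strand was in 78.1%, against 37.3% and 37.7%, and both were in 59.4%, against 5.06% and 7.32%. The 2 motifs do not overlap in their letters. Cdk1 and Smc4 each held TTTGAA letters at 2 places in the stretch shown, and Kif11 held none. These are matches of letters in a window, with no measurement of binding. No other spelling of the CHR was searched, so a promoter without TTTGAA is not shown to lack the element.

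**Figure D1:**
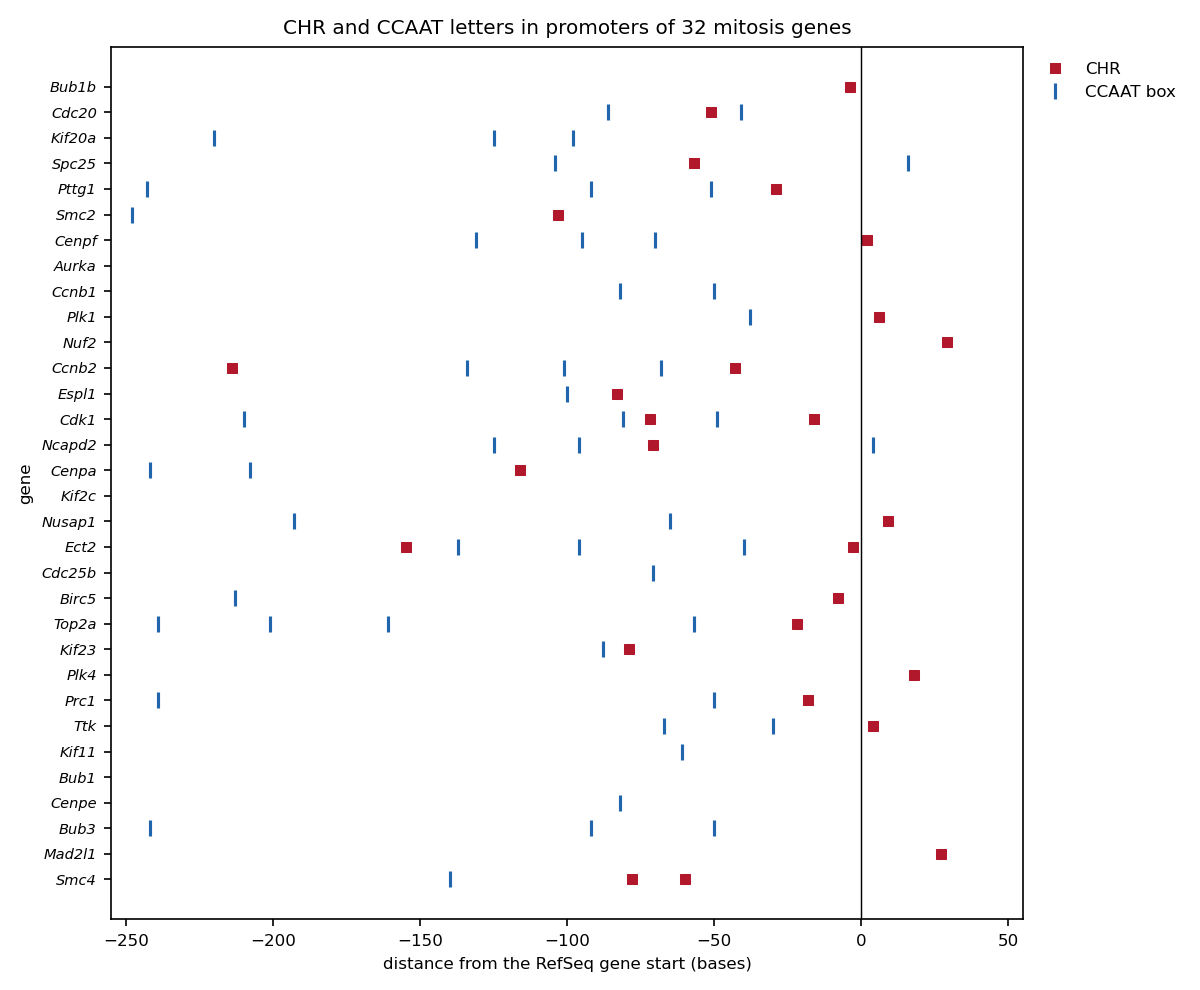
Position of TTTGAA (CHR letters) and CCAAT on either strand in the promoters of 32 measured members, in bases from the RefSeq start; each row is a gene and each mark a match. TTTGAA matches lie mostly within 100 bases of the start, in 21 of 32 promoters, and CCAAT letters occur in 25 of 32.

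Levels below are log2 intensities of a probe set and can be compared between arrays for 1 gene, not between genes. Changes are differences of group means on the log2 scale, given with ± their standard error, and a gene was called when its adjusted p in limma, over all 14217 genes, was under 0.05. The smallest two-sided p of an exact permutation test with 3 arrays a side is 0.1, so calls rest on the fitted model.

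The first comparison asked what cytokines did to the list at 6 h in DMSO. Of 36 members 35 fell and 0 rose, where 27.4% of all genes fell and 24.3% rose. Their median change was -1.02, against 0.00 over all genes. At least a 2-fold fall was seen for 18 members, where 5.04% of all genes fell that far. In 35 members all 3 arrays with cytokines lay below all 3 without, a pattern seen in 28.5% of all genes. The median level of the 36 members lay between 9.23 and 9.31 on the 3 arrays with cytokines and DMSO, against 10.37 to 10.44 on the 3 arrays with DMSO alone.

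The next comparison asked what BRD0476 did in the presence of cytokines at 6 h. Of 36 members 30 rose and 0 fell relative to cytokines with DMSO, where 24.7% of all genes rose and 19.4% fell. The median change was 0.62, against 0.00 over all genes, and 3 members (Kif20a, Smc2 and Cdc25b) rose at least 2-fold, where 2.07% of all genes did. All 3 arrays lay above the other 3 for 33 members, against 27.7% of all genes. Arrays with cytokines and BRD0476 had member medians of 9.95 to 10.02, above those with cytokines and DMSO and below every array without cytokines. Both comparisons use the same 3 arrays with cytokines and DMSO, so their opposite signs are not independent of each other.

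**Figure D2:**
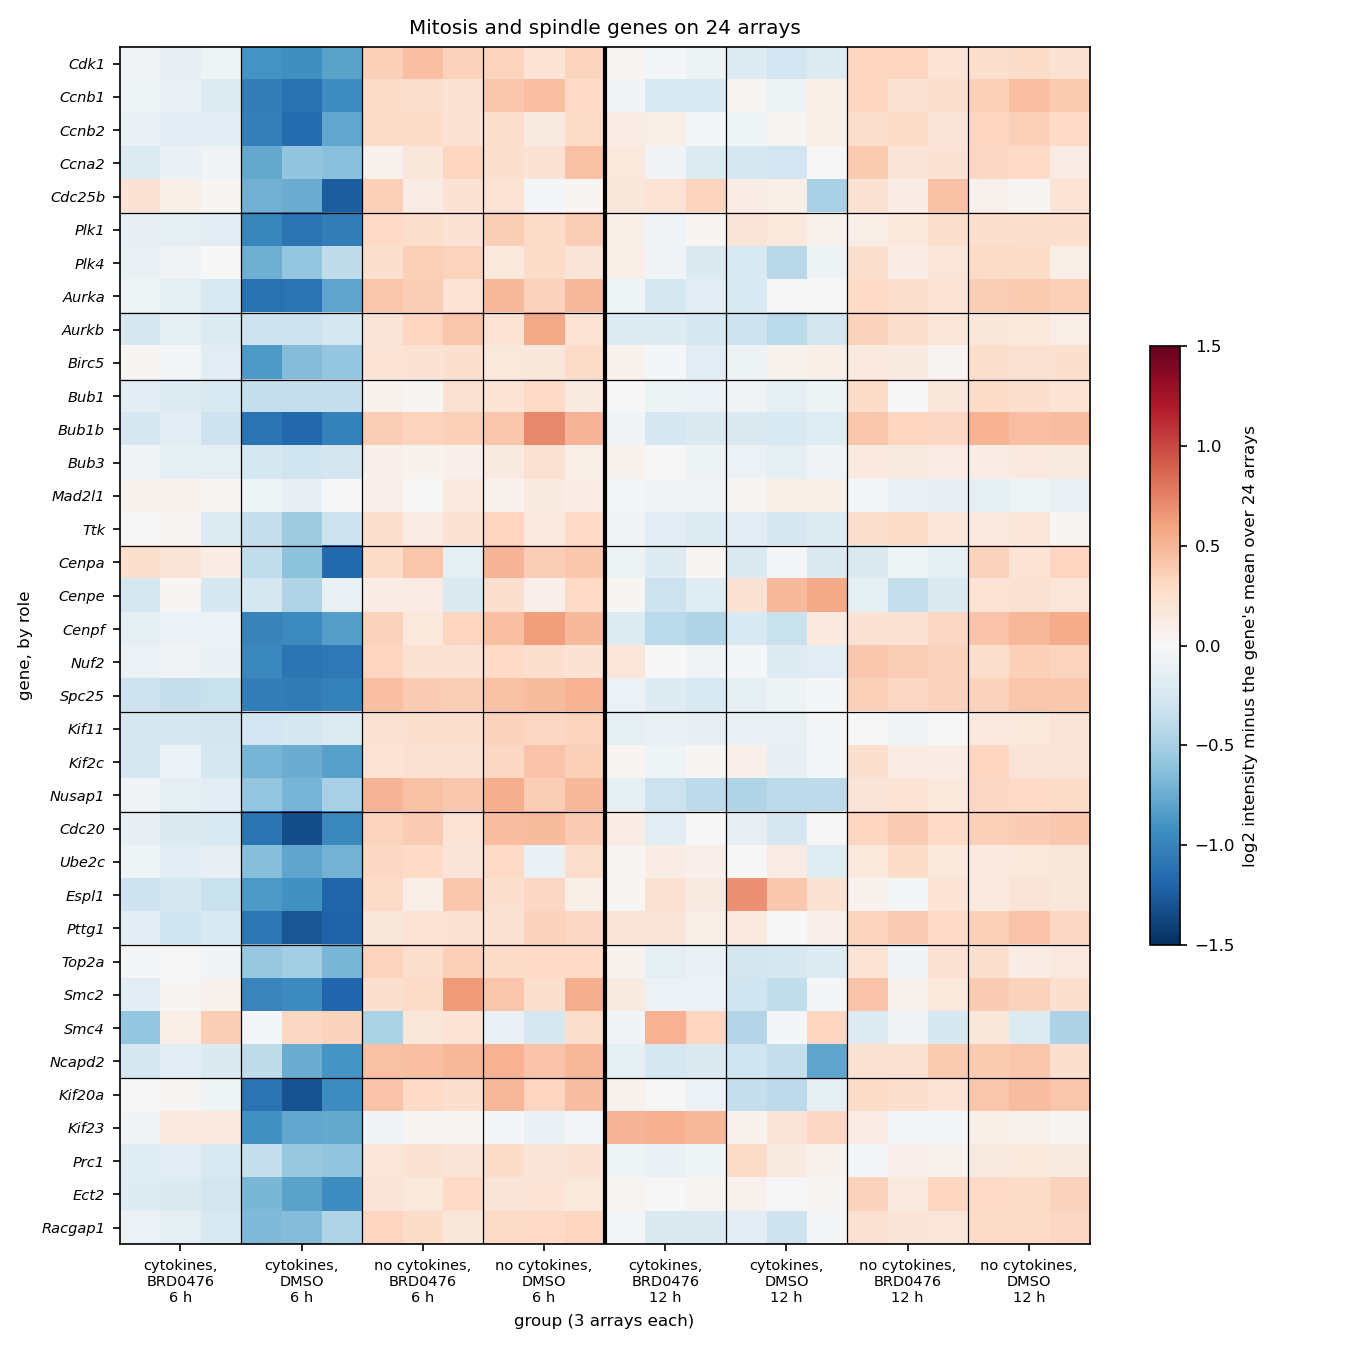
Log2 intensity of the 36 measured members on the 24 arrays, each as its difference from the gene's mean over all arrays (colour scale, log2), with genes in rows by role and arrays in columns by group. The 3 arrays with cytokines and DMSO at 6 h are the lowest block for most genes. Smc4 is a row without such a block, and in Aurkb, Kif11 and Mad2l1 another group had a slightly lower mean.

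In the genes of mitotic entry, all 5 measured members fell with cytokines in DMSO at 6 h and all 5 rose with BRD0476. Cdk1 is the kinase whose activity starts mitosis. It read 11.56, 11.48 and 11.54 with cytokines and BRD0476 and 10.71, 10.69 and 10.80 with cytokines and DMSO, against 11.94, 11.81 and 11.94 with DMSO alone. The 3 groups did not overlap. Its change with cytokines in DMSO was -1.16 ± 0.06 (adjusted p = 3.51e-13), a level 2.24-fold lower, and its change with BRD0476 under cytokines was 0.79 ± 0.06 (adjusted p = 4.34e-10). Ccnb1 encodes cyclin B1, the main partner of Cdk1. Its arrays gave 10.52, 10.48 and 10.38 with cytokines and BRD0476 and 9.55, 9.47 and 9.66 with cytokines and DMSO, against 11.00, 11.05 and 10.89 with DMSO alone, again without overlap. It fell by 1.42 ± 0.07 (adjusted p = 2.26e-13) with cytokines and rose by 0.90 ± 0.07 with BRD0476 (adjusted p = 8.29e-10). Cdc25b, a phosphatase that activates Cdk1, is the member of this role with the largest rise under BRD0476. Its 3 arrays with cytokines and BRD0476 read 9.40, 9.27 and 9.21, against 8.46, 8.44 and 7.94 with cytokines and DMSO, a change of 1.01 ± 0.14 (adjusted p = 5.89e-06). Ccnb2 and Ccna2, cyclins B2 and A2, fell by 1.21 ± 0.08 and 0.96 ± 0.10 with cytokines and rose by 0.84 ± 0.08 and 0.54 ± 0.10 with BRD0476.

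The mitotic kinases moved in the same way, 3 of 3 down with cytokines in DMSO and 3 of 3 up with BRD0476 under cytokines. Plk1, which drives centrosome maturation and many steps of mitosis, read 9.37, 9.34 and 9.31 with cytokines and BRD0476 and 8.52, 8.40 and 8.46 with cytokines and DMSO, against 9.85, 9.77 and 9.86 with DMSO alone. These ranges were separate, and the changes were -1.37 ± 0.06 with cytokines (adjusted p = 2.41e-14) and 0.89 ± 0.06 with BRD0476 (adjusted p = 8.58e-11). Aurka, the kinase of the spindle poles, gave 9.49, 9.40 and 9.32 with cytokines and BRD0476 and 8.43, 8.44 and 8.75 with cytokines and DMSO, against 10.03, 9.89 and 10.03 with DMSO alone. Its changes were -1.45 ± 0.09 (adjusted p = 9.89e-12) and 0.86 ± 0.09 (adjusted p = 6.34e-08), with no overlap between the groups. Plk4, which licenses centriole duplication, changed less, by -0.77 ± 0.10 and 0.50 ± 0.10.

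The 2 members of the chromosomal passenger complex fell alike but were not called alike with BRD0476. Birc5 (survivin), which docks the complex on the centromere, read 10.05, 10.01 and 9.87 with cytokines and BRD0476 and 9.17, 9.38 and 9.45 with cytokines and DMSO, against 10.19, 10.20 and 10.32 with DMSO alone. All 3 groups were apart, with changes of -0.91 ± 0.07 (adjusted p = 1.21e-09) with cytokines and 0.65 ± 0.07 with BRD0476 (adjusted p = 3.61e-07). Aurkb, the kinase of the complex, fell by 0.62 ± 0.08 with cytokines (adjusted p = 1.25e-06). Under cytokines it read 10.02, 10.12 and 10.06 with BRD0476, against 9.95, 9.94 and 10.00 with DMSO. The arrays did not overlap but the change of 0.10 ± 0.08 was small and not called (adjusted p = 0.358, 95% interval -0.07 to 0.27).

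**Figure D3:**
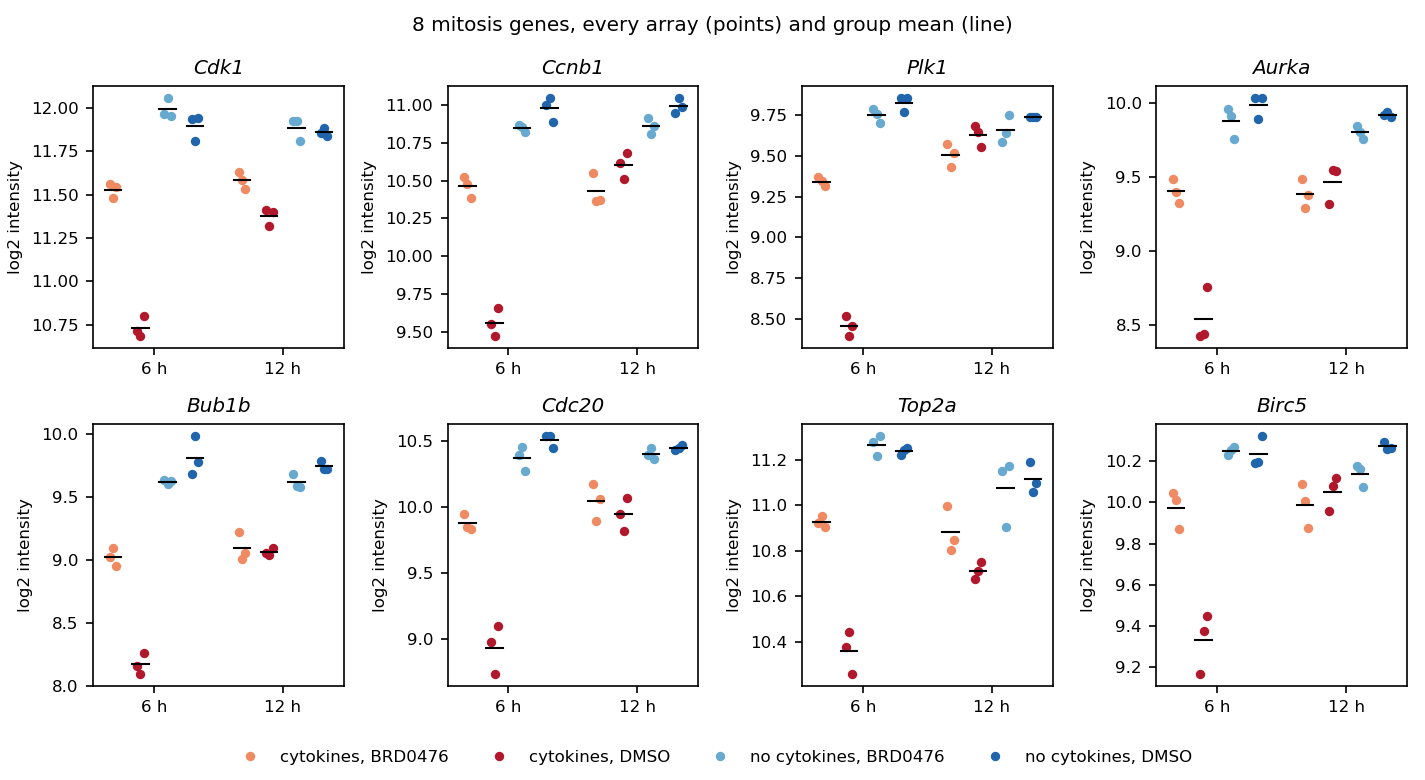
Log2 intensity of 8 members (Cdk1, Ccnb1, Plk1, Aurka, Bub1b, Cdc20, Top2a and Birc5) in the 8 groups; each point is an array and each bar a group mean (n = 3). In all 8 genes the 3 arrays with cytokines and DMSO at 6 h lie below every other array.

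In the spindle checkpoint, which holds anaphase until every chromosome is attached, the falls differed widely in size. All 5 members fell with cytokines in DMSO at 6 h, from -0.16 for Mad2l1 to -1.64 for Bub1b. Bub1b (BubR1), a part of the inhibitor of the anaphase-promoting complex, had the largest fall of the 36 members in that comparison. Its arrays read 9.02, 9.10 and 8.95 with cytokines and BRD0476 and 8.16, 8.09 and 8.25 with cytokines and DMSO, against 9.68, 9.98 and 9.78 with DMSO alone. The change with cytokines was -1.64 ± 0.07 (adjusted p = 6.12e-14), or 3.13-fold lower, and with BRD0476 it rose by 0.85 ± 0.07 (adjusted p = 5.2e-09). The arrays with BRD0476 under cytokines stayed below those with DMSO alone. Ttk (MPS1), the kinase that starts the signal, and Bub3, the partner of Bub1 and Bub1b, fell by 0.65 ± 0.08 and 0.43 ± 0.05 and rose by 0.34 ± 0.08 and 0.17 ± 0.05 with BRD0476. A second probe set of Ttk gave -0.60 and 0.44 without a call. Bub1, the kinase that recruits the others to the kinetochore, fell by 0.57 ± 0.07, and its change of 0.16 ± 0.07 with BRD0476 was not called (adjusted p = 0.0741). Mad2l1 (MAD2), which binds Cdc20 in the checkpoint complex, changed by -0.16 ± 0.05 with cytokines (adjusted p = 0.0128). That call was lost without replicate 2 with cytokines and DMSO at 6 h, at -0.13 (adjusted p = 0.0669), and other probe sets of Mad2l1 gave -0.54 and -0.52.

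Among centromere and kinetochore genes, 5 of 5 fell with cytokines in DMSO and 4 of 5 rose with BRD0476 under cytokines at 6 h. Spc25 and Nuf2 are subunits of the NDC80 complex that grips microtubule ends. Spc25 read 9.96, 9.92 and 9.94 with cytokines and BRD0476 and 9.23, 9.21 and 9.25 with cytokines and DMSO, against 10.71, 10.75 and 10.79 with DMSO alone. Its change of -1.52 ± 0.05 with cytokines had the smallest p of the members (adjusted p = 9.44e-16), and it changed by 0.70 ± 0.05 with BRD0476 (adjusted p = 6.31e-10). Nuf2 gave 10.12, 10.15 and 10.11 with cytokines and BRD0476 and 9.24, 9.11 and 9.13 with cytokines and DMSO, against 10.51, 10.46 and 10.42 with DMSO alone. Neither gene's groups overlapped, and Nuf2 changed by -1.30 ± 0.06 with cytokines and 0.97 ± 0.06 with BRD0476 (adjusted p = 1.21e-10). Cenpf, a large kinetochore protein of G2 and mitosis, fell by 1.45 ± 0.10 and rose by 0.83 ± 0.10. Cenpa, the histone variant that marks the centromere, fell by 1.14 ± 0.15 and rose by 0.90 ± 0.15. Cenpe, the kinetochore motor that moves chromosomes to the spindle equator, fell by 0.49 ± 0.12 (adjusted p = 0.00128). Its change with BRD0476 of 0.11 ± 0.12 was not called (adjusted p = 0.471).

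The spindle motors and binders fell in 3 of 3 cases and rose with BRD0476 in 2 of 3. Kif11 (Eg5), the motor that pushes the spindle poles apart, read 10.38, 10.38 and 10.35 with cytokines and BRD0476 and 10.34, 10.38 and 10.43 with cytokines and DMSO, against 10.98, 10.94 and 10.97 with DMSO alone. Both cytokine groups lay below DMSO alone and overlapped each other. Kif11 fell by 0.58 ± 0.05 with cytokines in DMSO (adjusted p = 7.5e-10) and by 0.50 ± 0.05 with cytokines in BRD0476 (adjusted p = 3.16e-08). The difference of BRD0476 from DMSO under cytokines was -0.01 ± 0.05 (adjusted p = 0.84), with a 95% interval of -0.11 to 0.08. The other probe set of Kif11 gave 0.10 ± 0.08 for that difference, also not called. Kif2c (MCAK), a microtubule-depolymerizing kinesin, and Nusap1, which bundles spindle microtubules, fell by 1.12 ± 0.07 and 1.06 ± 0.07. They rose by 0.55 ± 0.07 and 0.47 ± 0.07 with BRD0476.

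All 4 genes that trigger anaphase fell with cytokines in DMSO at 6 h and all 4 rose with BRD0476 under cytokines. Cdc20, the activator of the anaphase-promoting complex, read 9.94, 9.85 and 9.83 with cytokines and BRD0476 and 8.97, 8.73 and 9.09 with cytokines and DMSO, against 10.53, 10.54 and 10.45 with DMSO alone. The groups did not overlap, and the changes were -1.57 ± 0.09 (adjusted p = 1.96e-12) and 0.94 ± 0.09 (adjusted p = 1.5e-08). All 5 probe sets of Cdc20 were lower with cytokines, at -0.49 to -1.57, and the dimmest 2 of them were not called with BRD0476. Pttg1 (securin), which blocks separase until anaphase, gave 10.82, 10.69 and 10.76 with cytokines and BRD0476 and 9.91, 9.71 and 9.78 with cytokines and DMSO, against 11.22, 11.34 and 11.31 with DMSO alone. Its groups were separate too, at -1.49 ± 0.06 (adjusted p = 1.82e-14) and 0.96 ± 0.06 (adjusted p = 6.9e-11). Espl1 (separase), the protease that cuts cohesin, fell by 1.20 ± 0.11 and rose by 0.69 ± 0.11. Ube2c, the ubiquitin-conjugating enzyme of the anaphase-promoting complex, fell by 0.87 ± 0.09 and rose by 0.60 ± 0.09.

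Chromosome condensation held the exception, with 3 of 4 members down with cytokines in DMSO at 6 h and 3 of 4 up with BRD0476. Top2a, the topoisomerase that untangles sister chromatids, read 10.92, 10.95 and 10.90 with cytokines and BRD0476 and 10.38, 10.44 and 10.26 with cytokines and DMSO, against 11.22, 11.24 and 11.25 with DMSO alone. It changed by -0.88 ± 0.07 (adjusted p = 9.39e-10) and 0.57 ± 0.07 (adjusted p = 1.1e-06) with no overlap. Smc2, a core subunit of both condensins, gave 8.90, 9.07 and 9.12 with cytokines and BRD0476 and 8.06, 8.10 and 7.87 with cytokines and DMSO, against 9.47, 9.30 and 9.61 with DMSO alone. It fell by 1.45 ± 0.12 with cytokines (adjusted p = 1.7e-09) and rose by 1.02 ± 0.12 with BRD0476 (adjusted p = 5.69e-07). Ncapd2, a subunit of condensin I, fell by 1.15 ± 0.11 and rose by 0.46 ± 0.11. Smc4, the partner of Smc2, was not called: it read 7.998, 8.67 and 8.95 with cytokines and BRD0476 and 8.55, 8.89 and 8.92 with cytokines and DMSO, against 8.48, 8.33 and 8.85 with DMSO alone. All 3 groups overlapped, and its changes of 0.24 ± 0.24 (adjusted p = 0.446) and -0.25 ± 0.24 (adjusted p = 0.446) carry the widest error of the members. The 95% interval of the change with cytokines ran -0.26 to 0.74, which leaves out a fall of the median member's size, and a second, dim probe set of Smc4 gave 0.04 ± 0.11.

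In cytokinesis, 5 of 5 members fell with cytokines in DMSO at 6 h and 5 of 5 rose with BRD0476 under cytokines. Kif20a (MKLP2), the motor that carries the passenger complex to the midzone, had the largest rise with BRD0476 of all 36. It read 10.10, 10.11 and 10.03 with cytokines and BRD0476 and 8.99, 8.78 and 9.16 with cytokines and DMSO, against 10.59, 10.41 and 10.56 with DMSO alone. These did not overlap, and it changed by -1.54 ± 0.09 (adjusted p = 2.35e-12) and 1.10 ± 0.09 (adjusted p = 1.21e-09). Kif23 (MKLP1) and Racgap1 together form centralspindlin, which bundles the midzone. Kif23 gave 10.10, 10.29 and 10.29 with cytokines and BRD0476 and 9.24, 9.36 and 9.37 with cytokines and DMSO, against 10.13, 10.04 and 10.13 with DMSO alone. Arrays with cytokines and BRD0476 thus overlapped DMSO alone, while cytokines with DMSO lay lower, at -0.78 ± 0.07 (adjusted p = 4.62e-09) and 0.91 ± 0.07 (adjusted p = 9.92e-10). A second, dimmer probe set of Kif23 gave -0.66 (adjusted p = 0.14) and 0.82 (adjusted p = 0.0769), and it was called in 0 of the 16 comparisons made. Racgap1 fell by 0.89 ± 0.07 and rose by 0.44 ± 0.07, though its second probe set gave 0.09 ± 0.08 with BRD0476 and was not called. Prc1, the midzone crosslinker, and Ect2, the activator of RhoA at the cleavage furrow, fell by 0.74 ± 0.06 and 0.99 ± 0.06 and rose by 0.31 ± 0.06 and 0.58 ± 0.06.

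With BRD0476 present at 6 h, cytokines still lowered the list against BRD0476 alone, by less. Of 36 members 30 fell and 0 rose, where 10.7% of all genes fell and 10.3% rose, with a median change of -0.39. A fall of at least 2-fold was seen in 0 members and in 0.352% of all genes. Spc25 fell most, by 0.73 ± 0.05 (adjusted p = 7.55e-10), reading 9.96, 9.92 and 9.94 with cytokines and BRD0476 against 10.72, 10.65 and 10.63 with BRD0476 alone. Ncapd2, Bub1b and Nusap1 followed at -0.67, -0.60 and -0.57. Members without a call were Cdc25b (-0.12), Mad2l1 (-0.03), Cenpa (0.00), Cenpe (-0.17), Smc4 (0.00) and Kif23 (0.08). The difference between the cytokine changes in BRD0476 and in DMSO was tested as an interaction. It was positive and called for 31 of 36 members and negative and called for 0, where 18.8% of all genes had a positive call and 14.4% a negative one. Its median was 0.65, and it was largest for Kif20a, at 1.21 ± 0.12 (adjusted p = 1.27e-07), with Cenpa (1.14 ± 0.21), Cdc20 (1.08 ± 0.12) and Cenpf (1.07 ± 0.14) next. It was not called for Kif11, Aurkb, Mad2l1, Cenpe and Smc4. The interaction uses the same cytokine arrays as the comparisons above.

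**Figure D4:**
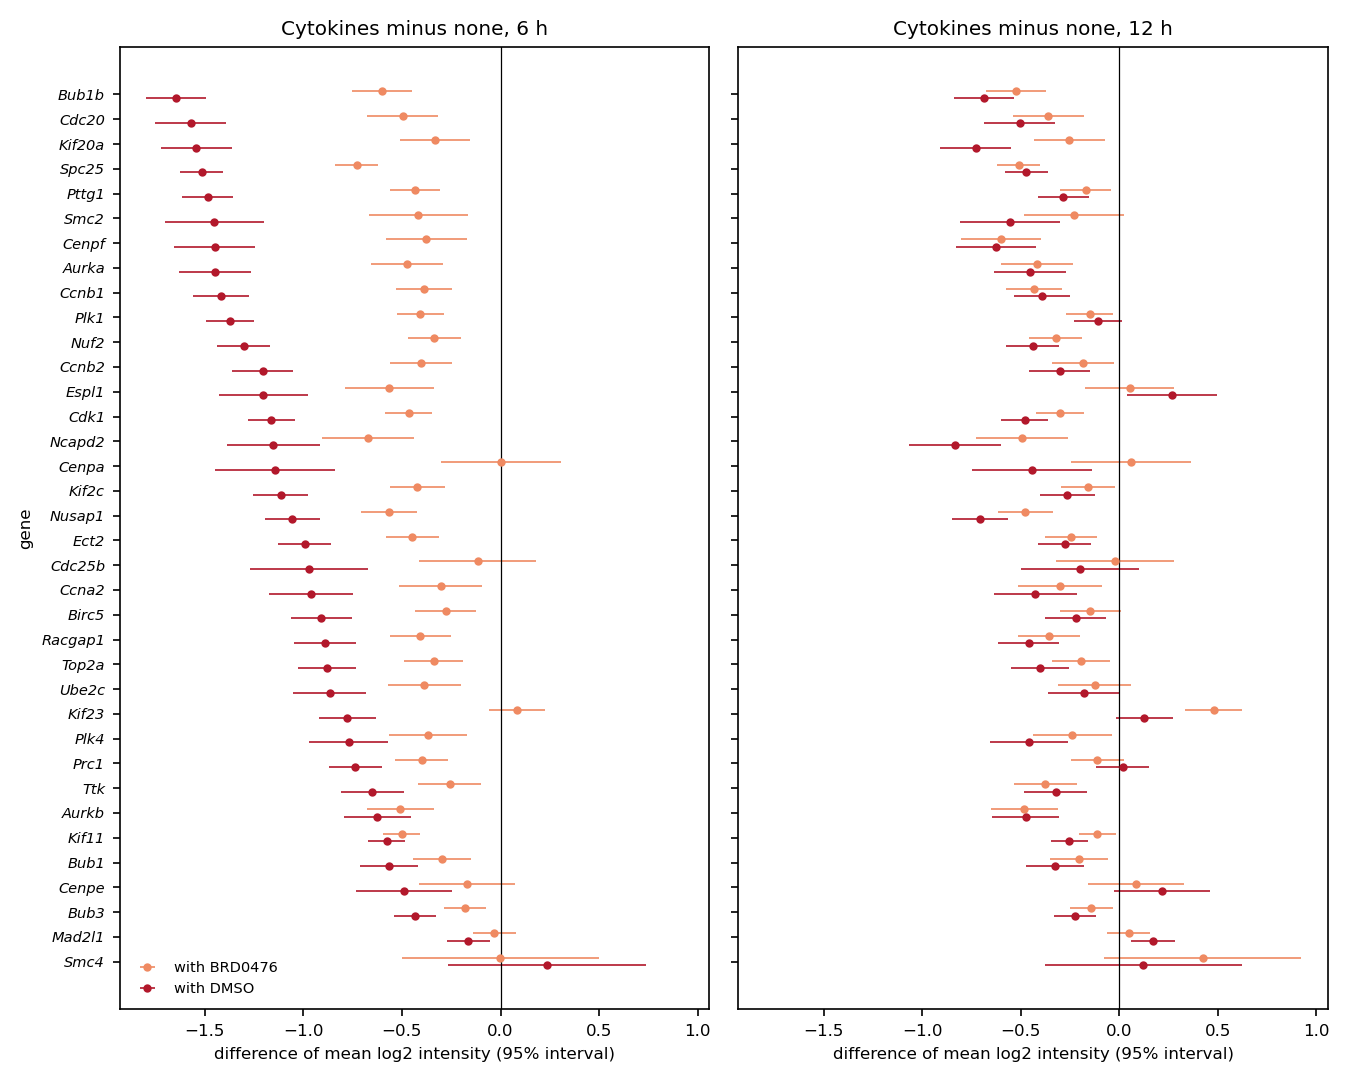
Log2 change with cytokines against none for each of the 36 members, in BRD0476 and in DMSO, at 6 h and at 12 h; points are estimates from the model and bars 95% intervals (n = 3 arrays a group). At 6 h the estimates in DMSO reach -1.64 and those in BRD0476 reach -0.73, and at 12 h the largest falls are -0.83 in DMSO and -0.60 in BRD0476.

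At 12 h the fall with cytokines in DMSO was still present for most members but smaller. Of 36 members 27 fell and 1 rose, where 29.9% of all genes fell and 16% rose, with a median of -0.36. A fall of at least 2-fold was seen in 0 members and in 3.26% of all genes. Ncapd2 had the largest fall, reading 8.24, 8.18 and 7.75 with cytokines against 8.93, 8.95 and 8.78 with DMSO alone, a change of -0.83 ± 0.11 (adjusted p = 2.9e-06). Kif20a gave 9.73, 9.69 and 9.95 with cytokines against 10.51, 10.56 and 10.50 with DMSO alone, at -0.73 ± 0.09 (adjusted p = 3.98e-07). Bub1b gave 9.05, 9.04 and 9.09 with cytokines against 9.79, 9.72 and 9.73 with DMSO alone, at -0.68 ± 0.07 (adjusted p = 1.02e-07). In each of these genes all arrays with cytokines lay below all without. Nusap1 fell by 0.71 ± 0.07, Cdk1 by 0.48 ± 0.06 and Cdc20 by 0.51 ± 0.09, the last of these on the probe set used here, while a dim probe set of Cdc20 gave 0.25 (adjusted p = 0.293).

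Other members were no longer called at 12 h. Plk1 read 9.68, 9.65 and 9.56 with cytokines and DMSO, against 9.74, 9.74 and 9.74 with DMSO alone, a difference of -0.11 ± 0.06 (adjusted p = 0.134). Espl1 read 9.67, 9.40 and 9.21 with cytokines, against 9.14, 9.18 and 9.16 with DMSO alone, so that all 3 arrays were higher but the change of 0.27 ± 0.11 was not called (adjusted p = 0.0523). Cdc25b, Cenpe, Ube2c, Smc4, Kif23 and Prc1 were not called either, at -0.20, 0.22, -0.18, 0.12, 0.13 and 0.02. Mad2l1 was the member that rose, by 0.17 ± 0.05 (adjusted p = 0.0111), with 9.81, 9.88 and 9.87 in cells with cytokines and DMSO, against 9.65, 9.72 and 9.67 with DMSO alone. Its other probe sets gave 0.05 and 0.07 without a call, and the mean of its probe sets gave 0.10 (adjusted p = 0.251).

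The change of the cytokine effect between 6 and 12 h in DMSO was tested directly, on the same 6 h arrays as above. It was positive and called for 31 members, where 11.8% of all genes were so, and negative and called for 0, where 16.9% were, with a median of 0.71. Espl1 had the largest, 1.47 ± 0.15 (adjusted p = 3.67e-07), then Plk1 at 1.26 ± 0.08, Pttg1 at 1.20 ± 0.09 and Cdc20 at 1.07 ± 0.12. Ncapd2, Plk4, Bub1, Aurkb and Smc4 were not called. With the replicate number as a block within the cells with cytokines and DMSO, 33 were called, Plk4 (0.31, adjusted p = 0.0426) and Ncapd2 (0.32, adjusted p = 0.015) among them. Seen within the cells with cytokines and DMSO, 32 members were higher at 12 h than at 6 h, where 18.4% of all genes were, and 0 were lower, where 23.1% were. The same block gave 34, adding Mad2l1 (0.13, adjusted p = 0.0439) and Ncapd2 (0.19, adjusted p = 0.0299). Pttg1 in these cells read 9.91, 9.71 and 9.78 at 6 h and 11.14, 11.01 and 11.07 at 12 h, a change of 1.27 ± 0.06 (adjusted p = 1.36e-12). Plk1 read 8.52, 8.40 and 8.46 at 6 h and 9.68, 9.65 and 9.56 at 12 h, a change of 1.17 ± 0.06. The 2 times did not overlap in either gene.

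Without cytokines few members were called between the times. In DMSO alone 0 members were called between 12 and 6 h by limma, where 1.67% of all genes were. At an unadjusted p under 0.05 there were 4 members, and array weights called 3. With BRD0476 alone 2 were called, both lower at 12 h, where 1.63% of all genes fell: Kif11 by 0.26 ± 0.05 (adjusted p = 0.00231) and Nusap1 by 0.26 ± 0.07 (adjusted p = 0.0382). Leaving out any of the 6 arrays left 1 call. With cytokines and BRD0476, 8 members were higher at 12 h than at 6 h, where 6.73% of all genes were, led by Espl1 (0.43 ± 0.11), Kif23 (0.42 ± 0.07) and Pttg1 (0.40 ± 0.06). That count was 4 without replicate 1 or 3 at 6 h and 5 without replicate 2 at 6 h or replicate 3 at 12 h. Without replicate 1 at 12 h 4 were higher and 2 lower, and array weights gave 10 higher and 3 lower.

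At 12 h few members were called between BRD0476 and DMSO in cells with cytokines. Of 36 members 4 rose and 3 fell, where 16.3% of all genes rose and 10.6% fell, and the median change was 0.07. Cenpe had the largest difference, reading 7.59, 7.25 and 7.39 with BRD0476 against 7.78, 8.05 and 8.13 with DMSO, a change of -0.58 ± 0.12 (adjusted p = 0.000648) without overlap. Kif23 read 10.65, 10.68 and 10.62 with BRD0476 against 10.19, 10.33 and 10.45 with DMSO, also without overlap, a rise of 0.32 ± 0.07 (adjusted p = 0.00113). Its second probe set gave 0.11 (adjusted p = 0.883), and the mean of its probe sets 0.22 (adjusted p = 0.484). The Kif23 arrays with cytokines and BRD0476 were also above those with BRD0476 alone (10.26, 10.12 and 10.13), by 0.48 ± 0.07 (adjusted p = 1.74e-05). That call too was lost on the second probe set (0.44, adjusted p = 0.442) and with the mean of its probe sets (0.46, adjusted p = 0.0906).

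The other 5 calls at 12 h were lost when single arrays were left out. Cdk1 rose by 0.21 ± 0.06 and its call was lost without replicate 2 with cytokines and DMSO (0.18, adjusted p = 0.0506). Kif20a rose by 0.29 ± 0.09 and lost its call without replicate 1 or 2 with DMSO, or replicate 1 with BRD0476 (adjusted p = 0.0567, 0.0793 and 0.0648). Prc1 fell by 0.23 ± 0.06 and lost its call without replicate 1 with DMSO (-0.17, adjusted p = 0.0676). Nuf2 (0.18 ± 0.06) and Espl1 (-0.31 ± 0.11) overlapped between the groups, and each was lost without any of 4 of the 6 arrays, with adjusted p up to 0.268 and 0.233. For Nuf2 these were replicates 2 and 3 with DMSO and 1 and 2 with BRD0476, and for Espl1 replicates 1 and 2 with DMSO and 1 and 3 with BRD0476. Plk1, Ccnb1 and Bub1b, at -0.12, -0.17 and 0.03, were not called.

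Between 6 and 12 h the BRD0476 effect under cytokines became lower for 28 members and higher for 0 at the same threshold, where 13.2% of all genes had a negative call and 11.9% a positive one, with a median of -0.58. The largest differences were those of Ccnb1 (-1.08 ± 0.10), Cenpf (-1.05 ± 0.14), Plk1 (-1.01 ± 0.08) and Espl1 (-0.996 ± 0.15). The test shares its arrays with cytokines and DMSO at 6 h with the comparisons above, so it is not independent of them. Member medians with cytokines and DMSO were 9.23 to 9.31 at 6 h and 9.95 to 10.06 at 12 h. With cytokines and BRD0476 they were 9.95 to 10.02 at 6 h and 10.02 to 10.16 at 12 h. Against BRD0476 alone, cytokines with BRD0476 at 12 h lowered 20 members and raised 1, Kif23, on the probe set used here, where 18.5% of all genes fell and 9.19% rose. The median was -0.22, and Cenpf (-0.60 ± 0.10), Bub1b (-0.52 ± 0.07) and Spc25 (-0.51 ± 0.05) fell most. Leaving out single arrays gave 15 to 23 calls. The interaction at 12 h was called for 2 members, Kif20a (0.48 ± 0.12, adjusted p = 0.00844) and Kif23 (0.35 ± 0.10, adjusted p = 0.0161), where 8.38% of all genes had a positive call. The Kif23 call was lost on its second probe set (0.34, adjusted p = 0.795), with the mean of its probe sets (0.35, adjusted p = 0.521) and with arrays centred on their medians (0.31, adjusted p = 0.0527).

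Without cytokines few members were called between BRD0476 and DMSO. At 6 h limma called 0 of 36 members, where 3.53% of all genes were called, and 3 had an unadjusted p under 0.05. The median change was -0.04, from -0.25 for Cenpf to 0.16 for Cdc25b, and none of the other settings tried called a member. Cdk1 read 11.97, 12.06 and 11.95 with BRD0476 alone against 11.94, 11.81 and 11.94 with DMSO alone, without overlap. It was the only member whose arrays all lay higher, while those of Ccnb1, Bub1b, Bub3, Cenpf, Kif11, Kif2c and Pttg1 all lay lower. Cdc20 read 10.39, 10.45 and 10.27 with BRD0476 alone against 10.53, 10.54 and 10.45 with DMSO alone, where the groups overlapped. None of these genes was called. At 12 h 2 members fell, where 2.64% of all genes did: Cenpe by 0.45 ± 0.12 (adjusted p = 0.0279) and Kif11 by 0.18 ± 0.05 (adjusted p = 0.0217). Cenpe read 7.42, 7.21 and 7.35 with BRD0476 alone against 7.78, 7.79 and 7.75 with DMSO alone. Kif11 read 10.62, 10.59 and 10.63 with BRD0476 alone against 10.77, 10.79 and 10.82 with DMSO alone. Neither gene's groups overlapped. The Kif11 call was lost when any 1 of the 6 arrays was left out (adjusted p of 0.0533 to 0.105) and the Cenpe call when any 1 other than replicate 1 with BRD0476 was left out (0.0726 to 0.14). In 13 members all arrays with BRD0476 alone lay below those with DMSO alone at 12 h, a pattern seen in 14.1% of all genes, and 2 of these members were called.

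**Figure D5:**
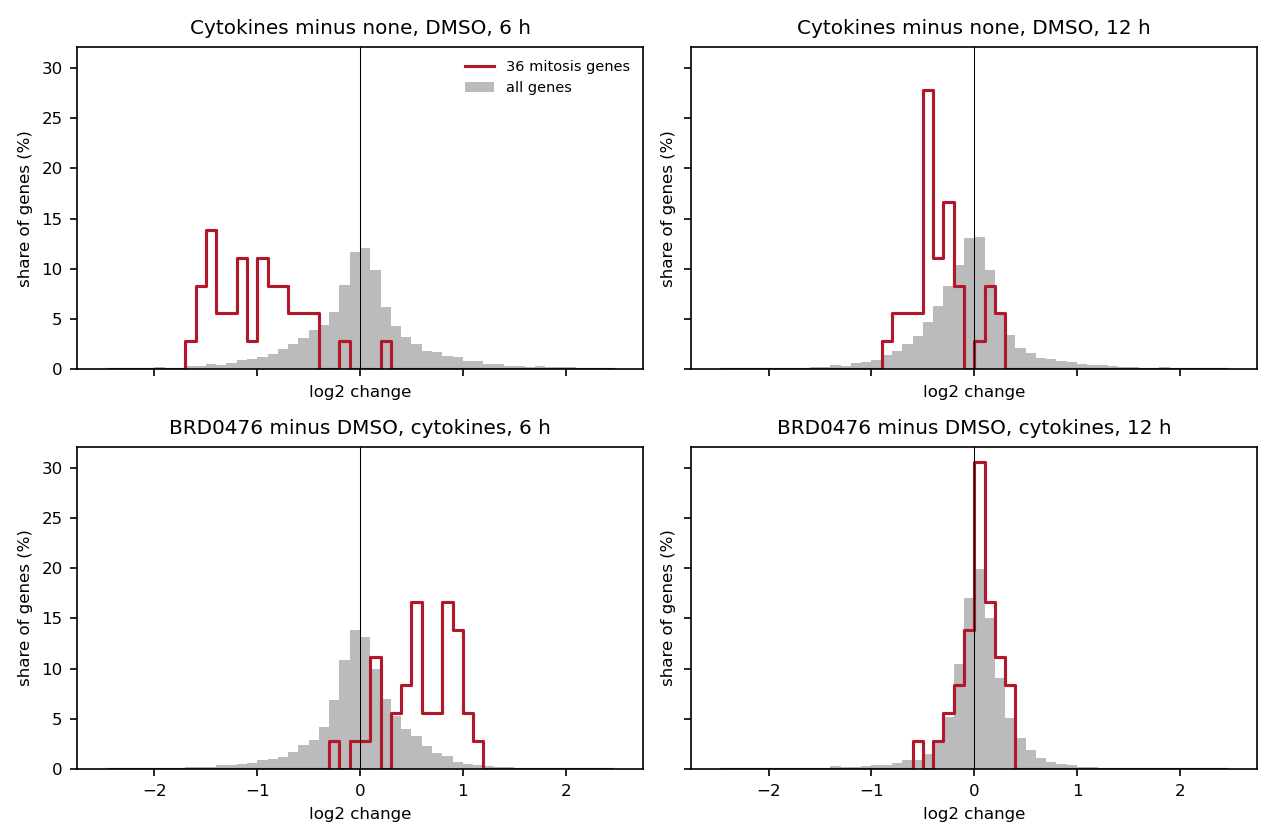
Distribution of the log2 change over the 36 members and over all 14217 genes, in 4 comparisons: cytokines against none in DMSO and BRD0476 against DMSO under cytokines, at 6 and 12 h. At 6 h the members centre on -1.02 and 0.62 while all genes centre on 0.00, and at 12 h the members centre on -0.36 and 0.07.

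The members can be read beside other genes of the same pathway. Of 69 measured further genes of mitosis, 55 fell and 3 rose with cytokines in DMSO at 6 h (median -0.62). With BRD0476 under cytokines 39 of them rose and 7 fell (median 0.30). Over all genes 27.4% fell and 24.3% rose with cytokines, and 24.7% rose and 19.4% fell with BRD0476. Cenpw, a histone-fold protein of the kinetochore, fell by 2.12 ± 0.09 and rose by 1.29 ± 0.09. Trip13, the ATPase that takes apart the checkpoint complex, fell by 1.84 ± 0.06 and rose by 1.28 ± 0.06, and Depdc1 and Fam83d fell by 1.80 ± 0.13 and 1.60 ± 0.08. At 12 h 44 of the 69 fell and 2 rose with cytokines in DMSO, where 29.9% of all genes fell and 16% rose. With BRD0476 under cytokines at 12 h 17.4% of the 69 were called, 9 up and 3 down, which is below the 26.9% of all genes called there. Of 42 measured genes of G1/S and DNA replication, 26 fell and 2 rose with cytokines in DMSO at 6 h (median -0.34). At 12 h 31 fell and 3 rose (median -0.33). Of all genes 27.4% fell and 24.3% rose at 6 h, and 29.9% fell and 16% rose at 12 h. Cdc45, a subunit of the replicative helicase, fell by 1.07 ± 0.09 at 6 h and 0.97 ± 0.09 at 12 h. Under cytokines 18 of these 42 rose with BRD0476 at 6 h and 2 fell, where 24.7% of all genes rose and 19.4% fell. In either direction 47.6% were called, near the 44% of all genes.

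Among regulators of the programme most calls with cytokines in DMSO at 6 h were falls. Of 20 measured, 10 fell and 1 rose, where 27.4% of all genes fell and 24.3% rose. In either direction 55% were called, near the 51.7% of all genes. Foxm1 and Mybl2, the activators of these promoters, were not called, at 0.10 ± 0.11 (adjusted p = 0.521) and 0.27 ± 0.14 (adjusted p = 0.0989). Under cytokines both fell with BRD0476 at 6 h, at -0.37 ± 0.11 and -0.61 ± 0.14, while 30 of 36 members rose. E2f7, a repressor of E2F targets, fell by 1.33 ± 0.09 with cytokines and rose by 0.94 ± 0.09 with BRD0476. Lin54, the MuvB subunit that contacts the CHR, fell by 0.79 ± 0.11 and rose by 0.45 ± 0.11. Lin37, a MuvB subunit needed for repression, was the regulator that rose, by 1.52 ± 0.24 (adjusted p = 1.45e-05), and with BRD0476 it fell by 1.40 ± 0.24.

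CDK inhibitors and growth-arrest genes went both ways. With cytokines in DMSO at 6 h 7 of 13 rose and 3 fell, where 24.3% of all genes rose and 27.4% fell. With BRD0476 under cytokines 2 rose and 8 fell, where 24.7% of all genes rose and 19.4% fell. Cdkn1a (p21) rose by 1.63 ± 0.21 with cytokines at 6 h (adjusted p = 8.07e-07) and by 2.54 ± 0.21 at 12 h, and with BRD0476 under cytokines it fell by 1.71 ± 0.21 at 6 h and by 0.95 ± 0.21 at 12 h. The change of its cytokine effect between 6 and 12 h was 0.91 ± 0.29 (adjusted p = 0.0234). Gadd45b and Gadd45a, stress genes of growth arrest, rose by 3.83 ± 0.11 and 1.86 ± 0.07 at 6 h. Cdkn2c (p18), an inhibitor of CDK4 and CDK6 and itself an E2F target, fell by 1.98 ± 0.07 with cytokines and rose by 1.25 ± 0.07 with BRD0476. Whether any of these genes set the levels of the members was not tested.

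Changes at 6 h overlapped between members with and without the CHR letters. The 23 members with TTTGAA in the promoter window had a median change of -1.15 with cytokines in DMSO, with a range of -1.64 to 0.24, and the 9 without it had -0.97, with a range of -1.54 to -0.43. With BRD0476 under cytokines the medians were 0.70 and 0.55. Smc4, with those letters at 2 places in the stretch printed above, was not called in either comparison. Kif20a, Aurka and Ccnb1, without them, were among the larger changes. Kif11, Bub1, Cenpe and Bub3, also without them, were among the smaller falls with cytokines (-0.58, -0.57, -0.49 and -0.43). Mad2l1, with them, fell by less (-0.16). Whether the letters bear on the changes was not tested.

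Beta-cell markers moved at the same time as the list. With cytokines in DMSO at 6 h, 7 of 8 measured markers fell and 0 rose (median -0.35), where 27.4% of all genes fell and 24.3% rose. With BRD0476 under cytokines 6 rose and 0 fell (median 0.35), where 24.7% of all genes rose and 19.4% fell. The summed intensity of the 8 was 89110 to 90249 with cytokines and BRD0476 and 76607 to 77752 with cytokines and DMSO, against 85536 to 94376 with DMSO alone. The brightest probe sets weigh most in such sums, here and below. Among markers of other cell types, summed intensities of 3 lists were also lower with cytokines and DMSO at 6 h. The 4 other islet hormones summed to 1183 to 1231 with cytokines and BRD0476 and 656 to 715 with cytokines and DMSO, against 1177 to 1438 with DMSO alone. The 5 fibroblast markers summed to 119 to 131 with cytokines and BRD0476 and 84 to 98 with cytokines and DMSO, against 143 to 170 with DMSO alone. The 3 endothelial markers summed to 72 to 84 with cytokines and BRD0476 and 37 to 43 with cytokines and DMSO, against 67 to 91 with DMSO alone. In each of these lists 1 gene fell with cytokines and rose with BRD0476: Gcg (-0.96 ± 0.10 and 0.84 ± 0.10), Pdgfra (-1.63 ± 0.11 and 1.09 ± 0.11) and Kdr (-1.76 ± 0.18 and 1.72 ± 0.18). Of the rest, Pecam1 rose with cytokines by 0.33 ± 0.12 (adjusted p = 0.0248) and no other gene of these 3 lists was called in either comparison. The 4 leukocyte markers summed to 66 to 70 with cytokines and BRD0476 and 68 to 69 with cytokines and DMSO, against 60 to 75 with DMSO alone. Of them 0 were called in limma in either comparison, with 0 and 1 at an unadjusted p under 0.05. The part of these marker changes in the result was not tested.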

How the data were processed

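RNA of INS-1E cells was measured on 24 Affymetrix arrays in 8 groups of 3. The deposited values are linear intensity values per probe set (31099, of which 57 are controls), made by the authors with RMA per the submitters' processing notes. Its version, the chip definition and the step to linear values are not given in the sources used here. Arrays limit the precision through their number, 3 a group. RMA summarizes and normalizes across arrays, so a shift shared by all genes would not be seen.

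Values were taken to log2 without further normalization. Of the probe sets, 20832 carried 1 gene symbol, and the probe set with the highest mean stood for a gene. A model with a mean per group was fitted to all 14217 genes (limma 3.58.1, R 4.3.3; 16 residual and 3.965 prior degrees of freedom). The p-values were adjusted with Benjamini-Hochberg over all genes in each of 16 comparisons. Python 3.11.15 with pandas 2.3.3 and matplotlib 3.10.9 read promoters and drew figures. The steps were tested on simulated data.

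The members, the other gene lists and the tests were chosen with earlier results of these data known. Any of the 36 members may be named. Array values are given for called members with the largest change and no overlap between groups (up to 6 a direction for cytokines in DMSO and for BRD0476 under cytokines, up to 4 elsewhere), for a panel of 8 (Cdk1, Ccnb1, Plk1, Aurka, Bub1b, Cdc20, Top2a and Birc5) and for members that stood apart. Array values of Aurkb, Kif11, Kif23 and Smc4 at 6 h and of Espl1 at 12 h lie outside that rule and were chosen after their values were seen. From each other list up to 4 genes with the largest called change are named, and Foxm1 and Mybl2, the activators of these promoters, were named for their role after their values were seen. Promoter sequences are RefSeq's (GRCr8). Alternatives were array weights, only the groups compared, a replicate block, an intensity trend with a robust prior, the mean of probe sets, other probe sets, dim genes left out, centring, quantile normalization and leaving out each array. Deviations of same-numbered arrays from their group means correlated at -0.46 to 0.722, above 0.1 in 15 of 36 pairs. All 3 pairs were above 0.1 for cytokines with DMSO at 12 and 6 h (0.42, 0.396 and 0.722), so these numbers were taken as pairs from the data, not the labels, and a block within these 6 arrays was added after seeing the data. In the other comparisons of 2 groups at least 1 pair was not above 0.1, and the numbers were not taken as pairs.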

Additional observations from a re-analysis of the deposited data

Results flagged for a closer look

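The results below differed between conditions by a test of the difference itself, on the log2 scale in limma over all genes. Those that involve 6 h share the arrays with cytokines and DMSO at 6 h, so they are not independent of each other. No explanation was weighed.

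At 6 h the change with cytokines differed between BRD0476 and DMSO for 31 of 36 members, all with a positive difference. Of all genes 18.8% had a positive call and 14.4% a negative one. The largest differences were those of Kif20a (1.21), Cenpa (1.14), Cdc20 (1.08) and Cenpf (1.07). The probe set of Cenpa had the lowest mean intensity among those used for the members (5.81). With cytokines and DMSO at 6 h it read 5.44, 5.19 and 4.65. At 12 h the change with cytokines differed for 2, Kif20a (0.48) and Kif23 (0.35), where 8.38% of all genes had a positive call. The share of the members was thus below that of all genes. The Kif23 call was lost on its second probe set (adjusted p = 0.795), with the mean of its probe sets and with centred arrays.

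In DMSO the change with cytokines differed between 12 and 6 h for 31 members, all with a positive difference. Of all genes 11.8% had a positive call and 16.9% a negative one. It differed most for Espl1 (1.47), Plk1 (1.26), Pttg1 (1.20) and Cdc20 (1.07). Under cytokines the change with BRD0476 differed between 12 and 6 h for 28 members, all with a negative difference. Of all genes 13.2% had a negative call and 11.9% a positive one. Differences were largest for Ccnb1 (-1.08), Cenpf (-1.05), Plk1 (-1.01) and Espl1 (-0.996).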

How the results depend on the processing

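Counts of called members at 6 h kept within 1.5 times under all alternatives run: 34 to 35 for cytokines in DMSO (35 as reported), 27 to 30 for cytokines in BRD0476 (30), 29 to 31 for BRD0476 under cytokines (30) and 29 to 32 for their interaction (31). At 12 h cytokines in DMSO gave 26 to 30 (28). Smaller counts moved. BRD0476 under cytokines at 12 h (7) gave 2 when only the groups compared were fitted. BRD0476 alone at 12 h (2) gave 5 with array weights, 1 with the mean of probe sets and 0 to 1 with an array left out. The interaction at 12 h (2) gave 1 with centred arrays. From 6 to 12 h, DMSO alone (0) gave 3 with array weights, 2 with an intensity trend and robust prior and 2 with dim genes left out. BRD0476 alone (2) gave 0 with the mean of probe sets, 1 with centred arrays, 0 with only the groups compared and 1 with an array left out. Cytokines with BRD0476 (8, all up) gave 13 with array weights (10 up, 3 down), 4 with only the groups compared and 4 to 6 with an array left out. Without replicate 1 at 12 h these were 4 up and 2 down. The cause of these moves was not tested. The replicate number as a block gave 35 calls for cytokines in DMSO and 30 for BRD0476 under cytokines at 6 h, and 2 for BRD0476 alone at 12 h. It changed no count by over 1.5 times. Within cytokines and DMSO the numbers were taken as pairs from the data, not the labels. The block there gave 34 calls between the times (32), 33 for the change of the cytokine effect (31) and 29 for that of the BRD0476 effect (28, adding Plk4). That block was chosen because these arrays correlated, so the added calls are no independent support. Of single members' calls, 2 reversed on another probe set: Cdc20 with cytokines in DMSO at 12 h (0.25) and Ttk with cytokines in BRD0476 at 6 h (0.0073, adjusted p = 0.995). With an array left out, 1231 single results stayed called and 83 did not. On other probe sets 46 stayed called, 31 kept their sign but not their call, and the 2 above reversed without a call. Centring or quantile normalization moved the median of all genes by less than 0.1.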

Other observations

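The probe set shared by Anln, which scaffolds the contractile ring, and Anlnl1 belongs to neither gene alone. Fitted over 31042 probe sets, it changed by -1.18 ± 0.09 with cytokines in DMSO at 6 h (adjusted p = 2.44e-10) and by 0.66 ± 0.09 with BRD0476 under cytokines (adjusted p = 3.02e-06). At 12 h the change with cytokines in DMSO was -0.12 ± 0.09 (adjusted p = 0.318).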
